A study of Mus musculus and Homo sapiens
Mus musculus with 16 samples.

Results

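The dopamine receptor gene Drd1 and the transcription factor genes Foxp1, Foxp2, Ebf1 and Isl1, a set of 5 genes used by striatal projection neurons, were followed through the promoter-centred chromatin contacts of the fetal mouse forebrain. An interaction belonged to a gene if either of its 10 kb bins overlapped the body of that gene in mm10. These were 5 of 20665 autosomal protein-coding genes, and 168 of the 58543 bin pairs listed in any library touched one of them. The contacts were mapped by H3K4me3 PLAC-seq, in which crosslinked chromatin is cut with MboI and ligated, and an antibody against H3K4me3, a histone mark of active promoters, then pulls down the ligated pieces. The groups were fetal forebrain at embryonic day E16.5 (2 libraries) and at E12.5 (2 libraries). Not analysed here were the other 12 samples, which are single-cell libraries of fetal forebrain, adult cortex and a mix of cell lines. The labels of the 4 libraries give tissue and stage, but neither the strain of the embryos nor the number pooled, and nothing in them says that replicates are of separate litters. Their extraction protocol describes adult cortex and the single-cell workflow, so tissue and stage rest on the other sample labels. The spread that p-values measure here may therefore be technical.

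Striatal projection neurons are the GABAergic output neurons of the striatum and arise from the lateral ganglionic eminence of the ventral forebrain. In the mouse, Isl1 and Ebf1 are needed for the neurons of the direct pathway, which carry the D1 receptor encoded by Drd1 and project to the substantia nigra. Foxp1 and Foxp2 encode forkhead repressors that striatal neurons share with layers of the cortex, so contacts measured in whole forebrain are not those of a single cell type, and fewer cells of a type cannot be told apart from fewer contacts per cell.

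The promoter sequences below are shown because an H3K4me3 pulldown starts from promoters, and because the CpG content of these starts differed widely. They come from a promoter table of RefSeq (GRCm38.p6), which has entries for Drd1, Foxp1, Ebf1 and Isl1 but none for Foxp2. They run 5′ to 3′ on the gene's strand from 250 bases before to 50 bases after the start. Outermost, middle and innermost rank the 3 Foxp1 entries of that table. The Foxp1 body itself ends at chr6:99522746, in the same bin as the outermost entry but beyond its start at 99520993. Capitals mark the CpG dinucleotides, letters CG, which read the same on both strands and do not overlap one another; 94.6% of all 32851 promoters in the table hold at least 1, with a median of 7.
Drd1 outer start, minus strand, chr13:54055609-54055908: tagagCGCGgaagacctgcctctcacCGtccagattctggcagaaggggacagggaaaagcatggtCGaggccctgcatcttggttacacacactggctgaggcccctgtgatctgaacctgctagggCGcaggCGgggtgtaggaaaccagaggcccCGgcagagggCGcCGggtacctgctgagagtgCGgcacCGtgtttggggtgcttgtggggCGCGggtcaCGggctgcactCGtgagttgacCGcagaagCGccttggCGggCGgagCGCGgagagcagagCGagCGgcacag
Foxp1 outermost start, minus strand, chr6:99520944-99521243: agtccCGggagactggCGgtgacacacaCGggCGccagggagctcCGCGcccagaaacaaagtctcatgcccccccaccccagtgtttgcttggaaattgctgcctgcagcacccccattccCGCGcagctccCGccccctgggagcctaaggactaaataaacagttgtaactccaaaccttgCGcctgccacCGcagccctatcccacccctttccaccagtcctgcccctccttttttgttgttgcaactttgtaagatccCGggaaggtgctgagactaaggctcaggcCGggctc
Foxp1 innermost start, minus strand, chr6:99028249-99028548: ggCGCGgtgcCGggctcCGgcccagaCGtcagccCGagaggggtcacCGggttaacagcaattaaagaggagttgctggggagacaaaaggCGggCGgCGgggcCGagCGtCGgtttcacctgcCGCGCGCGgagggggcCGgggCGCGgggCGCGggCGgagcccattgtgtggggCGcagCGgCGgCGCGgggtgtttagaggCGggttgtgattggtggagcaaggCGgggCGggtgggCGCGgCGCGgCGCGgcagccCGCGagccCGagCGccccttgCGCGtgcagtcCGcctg
Ebf1 upstream start, plus strand, chr11:44617850-44618149: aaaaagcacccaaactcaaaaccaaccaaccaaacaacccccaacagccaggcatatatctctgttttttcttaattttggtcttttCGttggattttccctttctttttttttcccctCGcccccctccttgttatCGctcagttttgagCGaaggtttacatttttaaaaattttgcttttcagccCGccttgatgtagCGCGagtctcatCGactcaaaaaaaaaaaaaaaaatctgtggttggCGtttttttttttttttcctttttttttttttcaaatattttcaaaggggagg
Isl1, minus strand, chr13:116309639-116309938: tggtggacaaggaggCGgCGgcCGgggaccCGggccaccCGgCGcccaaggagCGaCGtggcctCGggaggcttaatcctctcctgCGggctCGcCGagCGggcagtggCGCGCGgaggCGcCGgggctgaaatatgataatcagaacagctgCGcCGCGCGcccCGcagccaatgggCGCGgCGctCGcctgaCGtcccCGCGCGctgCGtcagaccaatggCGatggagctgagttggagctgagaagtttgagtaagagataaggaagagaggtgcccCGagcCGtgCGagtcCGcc
The innermost Foxp1 promoter held 44 CpGs, an observed over expected ratio of 1.11 that 1.76% of promoters reach. The outermost Foxp1 promoter held 13, a ratio of 0.499 that 42.0% of promoters reach. Isl1 held 37 (ratio 1.05), Drd1 23 (ratio 0.740) and Ebf1 only 9 in an AT-rich stretch with 36.7% GC (ratio 0.954), against a median ratio of 0.384 over all promoters. Starts of the same genes that are not printed differed from these. The second Drd1 start held 6 CpGs (ratio 0.230) and the middle Foxp1 start 5 (ratio 0.282), both below that median, and the second Ebf1 start held 17 (ratio 0.819) with 53% GC.

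The E16.5 lists were longer than the E12.5 lists. They held 35291 and 36794 interactions at E16.5, against 18413 and 16075 at E12.5, with 892987 and 911710 read pairs at E16.5 and 446855 and 405491 at E12.5. The median was 19 to 20 read pairs per interaction in every library, the lowest count was 6 to 7, and total sequencing depth is unknown. A contact that is not listed fell below the authors' threshold and is not known to be absent.

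All 5 genes had listed interactions in all 4 libraries and passed the filter of a sum of at least 10 interactions, as did 4036 genes in all. Contact number, the number of listed interactions that touch the gene body, rose at E16.5 for 1 of them, Foxp1, and fell for none. Over all genes tested, 11.0% were higher and 3.49% lower at an adjusted p under 0.05 (edgeR quasi-likelihood test, Benjamini-Hochberg adjustment). The median log2 change of all genes tested was 0.25, or 0.11 with library totals in place of TMM scaling. This median depended on the filter and was 0.09 for genes with a sum of at least 20. Before scaling, 4 of the 5 had more interactions in both E16.5 libraries than in either E12.5 library, beside 64.5% of all genes, and none had fewer in both, beside 3.39%. As a share of each library's list, Drd1, Foxp1 and Foxp2 were higher in both E16.5 libraries (31.6% of all genes), and Ebf1 and Isl1 were lower in both (28.8% of all genes). Together the 5 genes took 31.5 and 26.4 of every 10000 listed interactions at E16.5 and 28.8 and 24.3 at E12.5, values that overlap (exact permutation test, two-sided p = 0.667). With 2 libraries against 2, the exact test over the 6 assignments cannot give a p below 0.33.

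**Figure D1:**
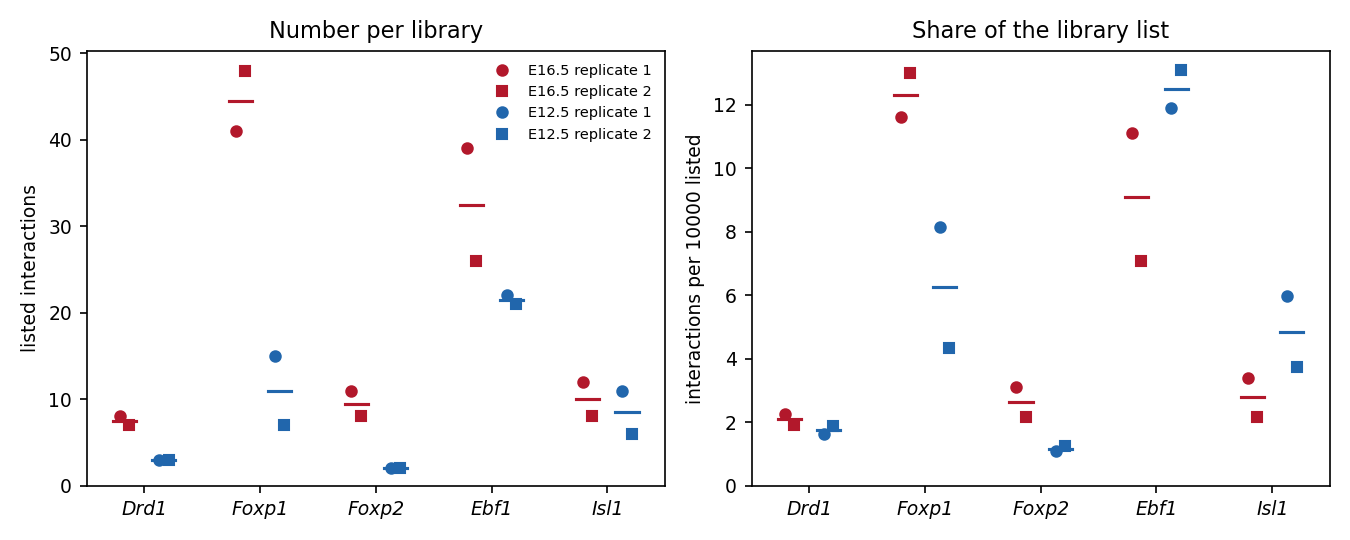
Listed interactions of each gene (left axis) and interactions per 10000 listed (right axis) in each library, E16.5 in red and E12.5 in blue, with circles for replicate 1, squares for replicate 2 and a bar at the mean of 2. The 2 E16.5 libraries of Foxp1 had 41 and 48 interactions, above the 15 and 7 at E12.5, while the numbers of Isl1 overlap between stages.

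Drd1, which encodes the D1 dopamine receptor, is a short gene on the minus strand (chr13:54051183-54055658, 4.48 kb) that lies in 1 bin. It had 8 and 7 interactions at E16.5 and 3 and 3 at E12.5. Its log2 change of 0.47 (SE 0.56) did not pass the test (edgeR, adjusted p = 0.702), and its share of the list was 2.27 and 1.90 per 10000 at E16.5 against 1.63 and 1.87 at E12.5. All but 1 of its 8 bin pairs led to a single block of 70 kb, chr13:53760001-53830000, at 230 to 290 kb on the Msx2 side of the gene. The block overlaps no protein-coding gene and holds the lncRNA gene Gm34439. The nearer neighbour Sfxn1, 16 kb away on the other side, received no listed contact.

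The contact of Drd1 with the bin at chr13:53780001-53790000, where an annotated start of Gm34439 lies, was the one Drd1 contact listed in all 4 libraries. It held 71 and 68 read pairs at E16.5, against 21 and 14 at E12.5. Both E16.5 counts are more than 3 times either E12.5 count. The contact rose by a log2 change of 1.62 (SE 0.27; 3.08-fold after scaling; edgeR, adjusted p = 5.04e-05). Relative to the authors' expected count it stood at 13.2 and 14.1 at E16.5, against 6.40 and 5.46 at E12.5. With the expected count as an offset in edgeR, in place of TMM scaling, the log2 change was 1.19 and the adjusted p 0.0540. The call was then lost. The whole block summed to 254 and 212 read pairs in 7 and 7 interactions at E16.5, against 55 and 42 in 3 and 3 at E12.5. Its edges at chr13:53820001-53830000 (26 and 19 read pairs) and chr13:53760001-53770000 (14 and 18 read pairs) were listed in both E16.5 libraries and in neither E12.5 library.

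Foxp1 encodes a forkhead transcription factor and spans 597 kb on the minus strand (chr6:98925342-99522746). It had 41 and 48 interactions at E16.5, against 15 and 7 at E12.5, and the stages did not overlap. The log2 change was 1.17 (SE 0.31; 2.24-fold after scaling; edgeR, adjusted p = 0.0216). The share of the list was 11.6 and 13.0 per 10000 at E16.5 and 8.15 and 4.35 at E12.5. Of the 73 Foxp1 bin pairs, 49 were listed in a single library. There were 56 listed at E16.5 and not at E12.5, and 10 of these were in both E16.5 libraries. Without E12.5 replicate 2, the library with the fewest Foxp1 interactions, the log2 change was 0.72 and edgeR's adjusted p 0.319, in a fit where the lone E12.5 library is assumed to vary like the E16.5 pair. The call was lost in 9 alternatives in all and kept in 8, and those that lost it included DESeq2 (adjusted p = 0.173), the bin of the outermost start alone (edgeR, log2 change 0.41, adjusted p = 0.554) and every list cut to the length of the shortest (edgeR, adjusted p = 0.0627).

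The Foxp1 bins with the most interactions were those of its outermost and innermost starts and the bin beside the outermost. The bin of the outermost start, chr6:99520001-99530000, had 17 and 31 interactions at E16.5 and 14 and 7 at E12.5, so it was already the main anchor at the earlier stage. The adjacent bin inside the gene, chr6:99510001-99520000, had 12 and 10 at E16.5 and 1 and 0 at E12.5. The bin of the innermost start, chr6:99020001-99030000, whose CpG-dense promoter is printed above, had 11 and 8 at E16.5 and 1 and 1 at E12.5. The bin of the middle start, chr6:99260001-99270000, had 1 and 1 at E16.5 and none at E12.5. Most Foxp1 interactions joined 2 bins of the gene itself, 25 and 33 at E16.5 and 10 and 7 at E12.5. Of its 73 bin pairs, 52 (71.2%) touched a bin with an annotated Foxp1 start. The like share was 100% for Drd1, 100% for Ebf1 and 70.6% for Isl1. Over all listed bin pairs, 62.6% touched a start of any gene, which is a different measure.

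**Figure D2:**
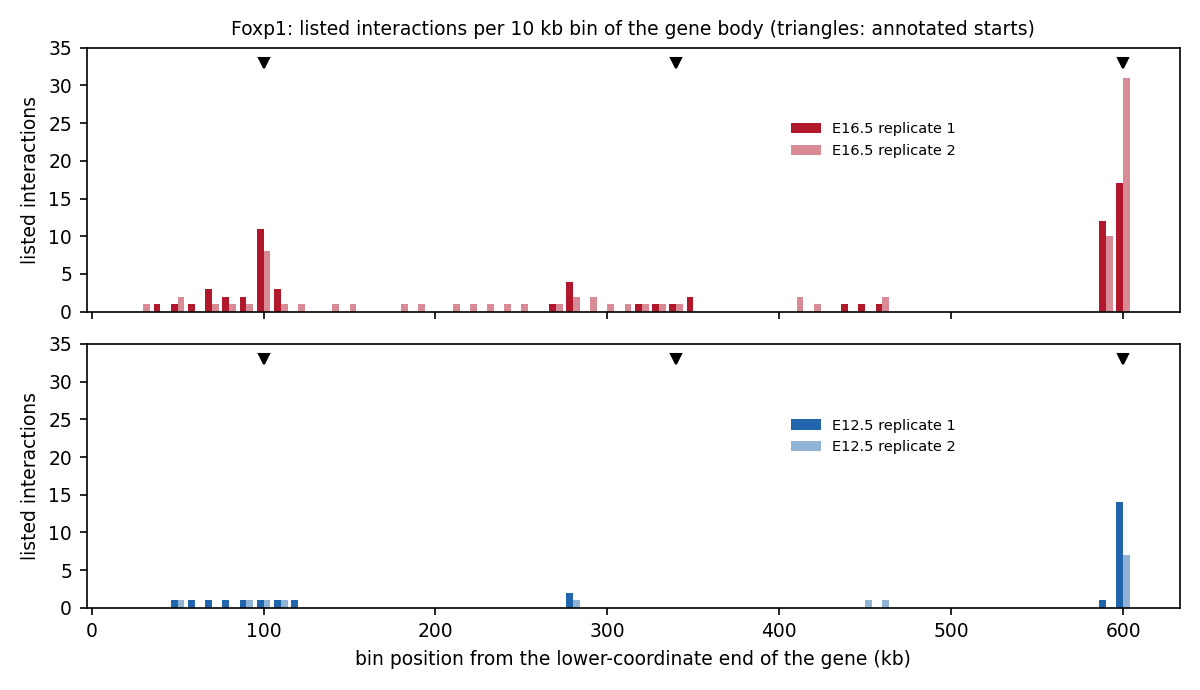
Listed interactions per 10 kb bin along the Foxp1 body, with E16.5 above and E12.5 below, darker bars for replicate 1, paler bars for replicate 2 and triangles at annotated starts. The horizontal axis is the distance in kb from the end with the lower coordinate; the outermost start, at 600 kb, reached 17 and 31 interactions at E16.5 and 14 and 7 at E12.5, and the innermost start, at 100 kb, reached 11 and 8 at E16.5 and 1 and 1 at E12.5.

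The outermost and innermost Foxp1 starts, 500 kb apart, were themselves joined in all 4 libraries. This contact held 66 and 49 read pairs at E16.5, against 21 and 19 at E12.5. It rose by a log2 change of 1.15 (SE 0.27; 2.23-fold; edgeR, adjusted p = 0.00273). Contacts of the same anchor a short way off did not pass the test: the bin next to the innermost start had 28 and 24 read pairs at E16.5 and 19 and 19 at E12.5 (log2 change 0.09; edgeR, adjusted p = 0.899). The bin at chr6:99200001-99210000, inside the gene at a start of the lncRNA gene Gm52870, had 36 and 34 at E16.5 and 30 and 33 at E12.5 (log2 change -0.21; edgeR, adjusted p = 0.691). For the joined starts the call was lost with DESeq2 (log2 change 1.16, adjusted p = 0.102), with the expected count as an offset in edgeR (0.84, adjusted p = 0.199) and without E12.5 replicate 2 in edgeR (1.11, adjusted p = 0.0513).

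Several Foxp1 contacts were listed in both E16.5 libraries and in neither E12.5 library. The anchor at the outermost start contacted the middle start, 260 kb away, with 29 and 25 read pairs at E16.5, and the bin beside it with 28 and 24. The innermost start and the bin beside the outermost start were joined by 28 and 20 read pairs. Outside the gene, the block chr6:98090001-98140000, 860 to 930 kb from its Foxp1 anchors and 68.6 kb from Mitf, had 6 and 3 interactions at E16.5 and none at E12.5. A second outside block, chr6:98500001-98580000, with 3 lncRNA genes and no protein-coding gene, had 9 and 8 at E16.5 and 5 and 0 at E12.5, so it was listed in a single E12.5 library.

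Foxp2, the other forkhead gene (chr6:14901349-15441977, 541 kb), had 11 and 8 interactions at E16.5 and 2 and 2 at E12.5. The stages did not overlap, but the log2 change of 1.36 (SE 0.60) missed the threshold (edgeR, adjusted p = 0.187). Its contacts stayed within the gene for 9 and 7 interactions at E16.5 and 2 and 2 at E12.5. The bin holding the end of Foxp2 with the lower coordinate, chr6:14900001-14910000, had 5 and 5 interactions at E16.5 and 2 and 0 at E12.5, and the bin chr6:15180001-15190000, 280 kb into the gene, had 4 and 4 at E16.5 and 1 and 2 at E12.5. No Foxp2 contact was listed in all 4 libraries. A contact between the lower-coordinate end and chr6:15410001-15420000, 510 kb apart near the other end of the gene, held 21 and 21 read pairs at E16.5 and was listed in neither E12.5 library, and the same was so of the bin beside it with 11 and 14.

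Ebf1, whose product is a helix-loop-helix factor needed for the differentiation of direct-pathway neurons, spans 390 kb on the plus strand (chr11:44618100-45008096). It had 39 and 26 interactions at E16.5 and 22 and 21 at E12.5. Against the longer E16.5 lists this was a log2 change of -0.25 (SE 0.29; edgeR, adjusted p = 0.635), with 11.1 and 7.07 per 10000 listed at E16.5 and 11.9 and 13.1 at E12.5. The E16.5 libraries differed more from each other than the E12.5 libraries did, and without E16.5 replicate 2 the log2 change was 0.04. All 56 Ebf1 bin pairs touched a bin with an annotated Ebf1 start. The upstream start bin, chr11:44610001-44620000, had 24 and 15 interactions at E16.5 and 18 and 12 at E12.5, and the next bin had 15 and 11 at E16.5 and 4 and 9 at E12.5.

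The Ebf1 starts contacted the body of their own gene. The block chr11:44760001-45060000, which reaches from inside the gene to just past its 3′ end, held 28 and 20 interactions at E16.5 and 18 and 18 at E12.5. Within it, the contact 390 kb from the start bin held 43 and 27 read pairs at E16.5 and 32 and 25 at E12.5 (log2 change -0.07; edgeR, adjusted p = 0.915). The contact 380 kb away had the most negative log2 change among the 5 genes, -0.69 (SE 0.29), with 17 and 18 read pairs at E16.5 and 24 and 20 at E12.5, and did not pass (edgeR, adjusted p = 0.165). A separate block 910 to 950 kb downstream, chr11:45520001-45580000, had 6 and 6 interactions at E16.5 and 4 and 3 at E12.5. It lies between Ebf1 and Clint1, 272 kb short of Clint1, and overlaps no annotated gene.

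Isl1 encodes a LIM-homeodomain factor of direct-pathway striatal neurons that is also known for its role in motor neurons. The gene is short (chr13:116298270-116309688, 11.4 kb, minus strand) and spans 2 bins. It had 12 and 8 interactions at E16.5 and 11 and 6 at E12.5, and the stages overlapped. Against the longer lists the log2 change was -0.60 (SE 0.42; edgeR, adjusted p = 0.440), with 3.40 and 2.17 per 10000 listed at E16.5 and 5.97 and 3.73 at E12.5. Its neighbours are far, Itga1 at 1196 kb and Parp8 at 541 kb.

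The main partner of Isl1 was the block chr13:116670001-116730000, upstream of its start, with 5 and 5 interactions at E16.5 and 7 and 4 at E12.5. The contact at 400 kb between the start bin and chr13:116700001-116710000 held 85 and 63 read pairs at E16.5 and 49 and 45 at E12.5, the highest sum of any contact of the 5 genes. Its raw counts were higher in both E16.5 libraries, but after scaling the log2 change was 0.29 (SE 0.23; edgeR, adjusted p = 0.485). Relative to the authors' expected count it stood at 10.7 and 9.49 at E16.5 and 8.24 and 9.95 at E12.5, values that overlap. The partner overlaps no annotated gene and lies 141 kb from Parp8. Weaker contacts on the other side, at 570 to 630 kb, led to chr13:115670001-115690000, with 2 and 1 interactions at E16.5 and 2 and 1 at E12.5, and to chr13:115720001-115740000, with 1 and 2 at E16.5 and 0 and 1 at E12.5.

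**Figure D3:**
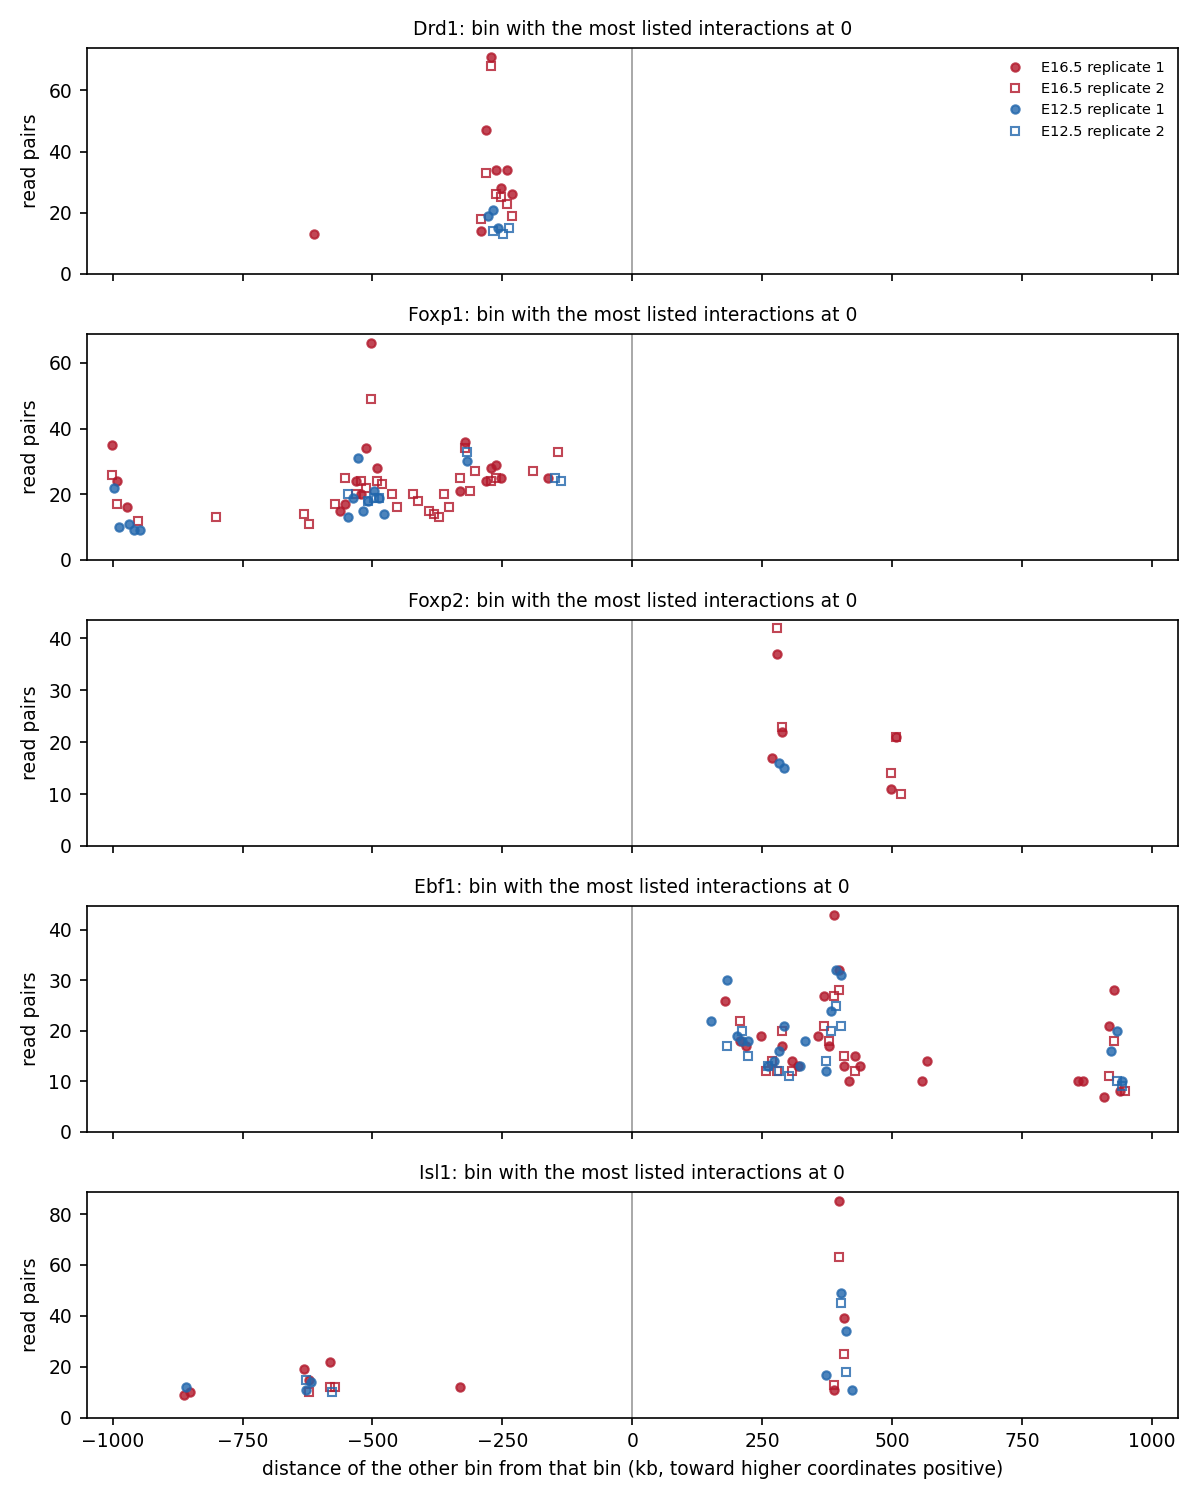
Read pairs of each listed contact of the bin with the most listed interactions in each gene, against the distance in kb of the other bin, positive toward higher coordinates; E16.5 is red, E12.5 blue, filled circles are replicate 1 and open squares replicate 2, and unlisted contacts are not drawn. All but 1 of the Drd1 contacts lay at 230 to 290 kb on one side, with 71 and 68 read pairs at E16.5 and 21 and 14 at E12.5 at their peak, and Isl1 contacts peaked at 400 kb on the other side in both stages.

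Contacts listed in all 4 libraries allowed a test of strength by read pairs, and the 5 genes had 17 of the 6875. Of these, 2 rose at E16.5 (the Drd1 contact and the joined Foxp1 starts) and none fell, beside 5.88% higher and 4.58% lower over all contacts tested (edgeR, adjusted p under 0.05). The median log2 change of the 17 was 0.09, against -0.01 over all, and 9 of the 17 had higher raw counts in both E16.5 libraries, beside 50.7% of all. The contact of Ebf1 at 380 kb was the 1 with lower raw counts in both, beside 7.87% of all. The other 4 Foxp1 contacts, the 7 of Ebf1 and the 4 of Isl1 had log2 changes from -0.69 to 0.52 and did not pass. Neighbouring bin pairs share an anchor and are not independent.

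**Figure D4:**
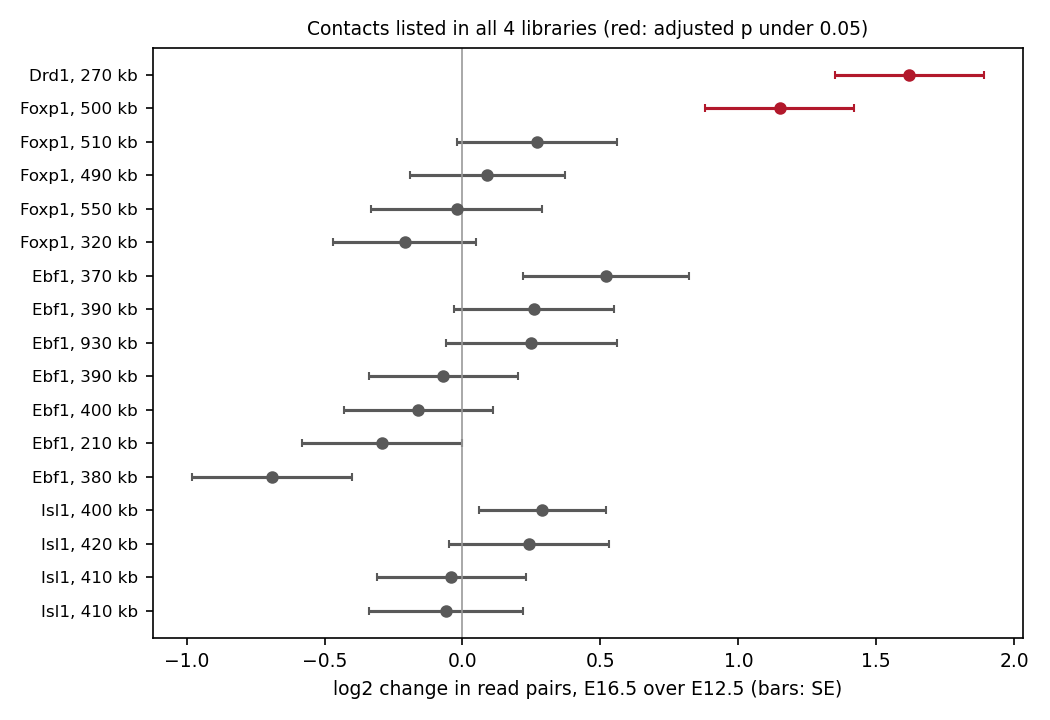
Log2 change in read pairs, E16.5 over E12.5, of the 17 contacts of the 5 genes listed in all 4 libraries, each labelled by gene and distance, with bars of 1 SE; red points passed an adjusted p under 0.05 and grey points did not. The Drd1 contact at 270 kb (1.62) and the Foxp1 contact at 500 kb (1.15) lie apart from the others, which run from -0.69 to 0.52.

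Contacts listed in both E16.5 libraries and in neither E12.5 library made up 20 of the 168 bin pairs (11.9%), and none was listed in both E12.5 libraries and in neither E16.5 library. Over all bin pairs these shares were 15.2% and 1.83%, so the difference between the directions was also present in the lists as a whole. Foxp1 had 10 of the 20, Ebf1 5, Drd1 2, Foxp2 2 and Isl1 1. Bin pairs listed in all 4 libraries made up 4 of 17 for Isl1, 1 of 8 for Drd1, 7 of 56 for Ebf1 and 5 of 73 for Foxp1.

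The partners' position was no part of the rule that assigned interactions to genes, but the genes were chosen with earlier results of these data known. Of the 168 bin pairs, 75 joined the gene to a bin outside it, and in 75 of 75 that bin overlapped no protein-coding gene. Over the 4036 genes tested, 38.2% of outside bin pairs had such a partner, and 227 of 3986 genes with at least 3 outside bin pairs (5.69%) had no other kind. The 75 are not independent, since many are neighbouring bins of the same block. All 3 outside bin pairs of Foxp2 ended in 1 bin, 1.35 kb from the gene. A start of any annotated gene lay in 8 of the 75 partners (10.7%). The room around the genes is given by their nearest protein-coding neighbours: 578 kb (Msx2) and 16 kb (Sfxn1) for Drd1, 583 kb (Gm765) and 99.1 kb (Eif4e3) for Foxp1, 146 kb (Ppp1r3a) and 279 kb (Mdfic) for Foxp2, and 52.6 kb (Rnf145) and 844 kb (Clint1) for Ebf1. The part of these gaps in the partners' position was not tested.

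The contacts of Foxp1, Ebf1 and Isl1 had longer medians than the lists as a whole, and those of Drd1 and Foxp2 did not at E16.5. The median distance over the 5 genes was 410 and 390 kb at E16.5 and 400 and 360 kb at E12.5, against 300 and 290 kb at E16.5 and 260 and 260 kb at E12.5 for all listed interactions. Ebf1 had medians of 390 and 375 kb at E16.5 and 325 and 300 kb at E12.5, a difference of 70 kb without overlap (exact permutation test, p = 0.33, the smallest possible). For all listed interactions the medians were 35 kb longer at E16.5. Foxp1 medians were 510 and 470 kb at E16.5 and 530 and 490 kb at E12.5, and those of Isl1 were 415 and 415 kb at E16.5 and 420 and 415 kb at E12.5. Drd1 medians were 265 and 260 kb at E16.5 and 270 and 250 kb at E12.5, and Foxp2 medians were 280 and 290 kb at E16.5 and 285 and 225 kb at E12.5, also with overlap.

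Of 9 paralogs of the 5 genes, 7 had listed interactions and 6 were tested. None rose and 3 fell (edgeR, adjusted p under 0.05), beside 11.0% higher and 3.49% lower over all genes tested. The median log2 change was -0.92, against a filter-dependent 0.25 over all genes. Ebf2, a factor of early-born neurons, had 6 and 6 interactions at E16.5 and 15 and 8 at E12.5 (edgeR, adjusted p = 0.0136). Foxp4 had 32 and 35 at E16.5 and 30 and 36 at E12.5 (edgeR, adjusted p = 0.0272), a fall relative to the longer lists. Ebf3 had 24 and 10 at E16.5 and 31 and 17 at E12.5 (edgeR, adjusted p = 0.0292). Among the dopamine receptors, Drd2, the receptor of the indirect pathway, and Drd4 had no listed interaction in any library, and Drd5 had 3 and 9 at E16.5 and none at E12.5 (edgeR, adjusted p = 0.0569).

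Of 59 other genes of striatal projection neurons and their precursors, 49 had listed interactions and 36 were tested. At E16.5, 5 rose, 5 fell and 26 did not pass, beside 11.0% higher and 3.49% lower over all genes tested. The median log2 change was -0.03, against a filter-dependent 0.25 over all genes. It was the same with the 4 genes at 0 in both E12.5 libraries set to a bound of 3 interactions. Those that rose included Arpp21, which encodes a phosphoprotein regulated by cAMP and had 43 and 49 interactions at E16.5 and 0 and 0 at E12.5 (edgeR, adjusted p = 0.000128), and the muscarinic receptor gene Chrm4, with 7 and 7 at E16.5 and 0 and 0 at E12.5 (edgeR, adjusted p = 0.0219). The kinase gene Camk4 also rose, with 10 and 10 at E16.5 and 0 and 0 at E12.5. The others that rose were the ephrin receptor gene Epha5 (7 and 10, against 0 and 0) and the transcription factor gene Mef2c (8 and 10, against 0 and 1). All 5 passed the filter through their E16.5 numbers. A gene near 0 at E12.5 could enter the test only if it was high at E16.5, so these calls were favoured by the filter. Those that fell included the transcription factor gene Sp8, which had 23 and 20 at E16.5 and 36 and 28 at E12.5 (edgeR, adjusted p = 0.00258), and Six3, Dlx2 and Ebf3 were among the others that fell. Related factor genes of the list did not pass, with log2 changes of 1.25 for Gsx1, 0.47 for Dlx5, 0.11 for Dlx6, -0.11 for Sp9 and -0.84 for Dlx1. The striatal identity gene Bcl11b had 24 and 22 at E16.5 and 11 and 13 at E12.5 (log2 change 0.09; edgeR, adjusted p = 0.898), and Ppp1r1b, which encodes DARPP-32, had 5 and 5 at E16.5 and 2 and 3 at E12.5.

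Markers of other forebrain cells moved between the stages as well, where 11.0% of all genes tested rose and 3.49% fell. Cortical projection neuron markers summed to 161 and 126 interactions at E16.5 and 21 and 19 at E12.5. Of these, 3 of the 5 tested rose, Neurod6 and Tbr1 among them. Neurod6 was at 0 in both E12.5 libraries and so passed the filter through its E16.5 numbers alone. Radial glia and progenitor markers summed to 161 and 139 at E16.5 and 191 and 196 at E12.5, most of them from Emx2 and Sox2. Of the 5 tested, Emx2, Pax6 and Sox2 were lower. Hes5 (5 and 4 at E16.5, 3 and 1 at E12.5) and Nes (4 and 2 at E16.5, 3 and 1 at E12.5) did not pass. All 3 diencephalon markers fell, with sums of 39 and 23 at E16.5 and 58 and 62 at E12.5. None of the 4 medial ganglionic eminence markers passed, with sums of 35 and 22 at E16.5 and 16 and 15 at E12.5. The motor neuron genes Mnx1 and Lhx3, which would accompany Isl1 in spinal motor neurons, were at 0 in every library, and the list of 4 motor neuron markers summed to 11 and 3 at E16.5 and 4 and 4 at E12.5. Choroid plexus markers summed to 3 and 2 at E16.5 and 11 and 6 at E12.5. The fall was that of Otx2 alone, with 1 and 0 at E16.5 and 11 and 6 at E12.5. Folr1 had 2 and 2 at E16.5 and 0 and 0 at E12.5, and Ttr had none in any library. Markers of meninges and mural cells summed to 32 and 13 at E16.5 and 19 and 19 at E12.5. Endothelial, microglial and erythroid markers had 0 to 2 interactions per library. The part of these markers in the Foxp1 and Drd1 results was not tested.

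By their sum over the libraries, Foxp1 ranked 155 and Ebf1 166 of the 4036 genes, Isl1 1025, Foxp2 1818 and Drd1 1988. This sum leans toward E16.5, whose lists were longer, and at E12.5 Ebf1 had more interactions (22 and 21) than Foxp1 (15 and 7). The genes on other chromosomes with the most similar interactions per 10000 over the 4 libraries, by Euclidean distance on a log2 scale, were Nav2 (0.440) and Cadm1 (0.504) for Foxp1, Tceanc2 (0.363) and Camk2n1 (0.391) for Ebf1, and Hoxa4 (0.149) and Rab34 (0.151) for Isl1. For Foxp2 they included Syf2 (0.247), and for Drd1 they were Dytn (0) and Dnajc15 (0.142). At these low numbers a close match is easily had: Dytn had the same 8 and 7 interactions at E16.5 and 3 and 3 at E12.5.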

How the data were processed

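Per the submitters' processing notes, the authors used BWA and SAMtools with build mm10. No tool version and no name or setting of the interaction caller is given in the sources used here. The deposited lists were called per library and give, per the file headers, a count of read pairs, an expected count (a modelled signal), an FDR (a q-value), a cluster size and the cluster's −log10 p. They hold autosomal pairs of 10 kb bins 20 to 1000 kb apart. Gene bodies were those of RefSeq on GRCm38.p6, whose primary sequence is that of mm10.

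Numbers of interactions (4036 genes) and read-pair counts (6875 contacts) were tested with edgeR 4.0.16 in R 4.3.3 (TMM, robust quasi-likelihood, stage as the sole term, Benjamini-Hochberg at 0.05), E16.5 minus E12.5, and the procedure was tested on simulated data. Single values used exact permutation tests over 6 assignments. Among contacts listed in both replicates of a stage, counts differed about as sampling noise (chi-square over degrees of freedom 0.935 at E16.5 and 0.846 at E12.5). They differed by more among those averaging 40 or more read pairs (1.75 at E16.5 and 1.30 at E12.5). Contacts listed in a single replicate do not enter, so this check cannot show that replicates differ by sampling noise only. The replicates were kept as 2 samples each. Paralog, striatal and marker lists, and the 5 genes, were chosen with earlier results of these data known. Named contacts were, per gene, the 3 listed in all 4 libraries with the most read pairs relative to the library total, up to 3 more of those past the threshold, and up to 3 restricted to both libraries of a stage with the most read pairs; other contacts and blocks named were chosen after their values were seen. Named similar genes were the 2 nearest per gene. Some genes of the lists and of this rule are not reported here by name. Alternatives were DESeq2 1.42.0, other scaling, filters, thresholds, offsets, bins and left-out libraries.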

Additional observations from a re-analysis of the deposited data

How the results depend on the processing

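The lists give contacts past the authors' threshold alone, so depth, and with it what is unlisted, limits all numbers, and 2 libraries per stage leave single low-number genes such as Foxp2 and Drd1 imprecise. The number of genes called (584) was 97 with DESeq2, 262 with lists cut to the shortest, 225 at FDR under 0.0001, 159 for interactions of at most 200 kb, 203 with the gene-start bin, and 0 with each cluster counted once (181 at an unadjusted p under 0.05) or with read pairs in place of interactions (993). Leaving out 1 library each gave 268 to 507, the lone library of a stage being assumed to vary like the other stage. The number of contacts called (719) was 98 with DESeq2, 18 with the expected count as an offset, 468 at FDR under 0.0001 in each library, and 274 to 537 with a library left out.

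The Foxp1 number kept its direction throughout, with log2 changes of 1.22 with DESeq2, 1.03 with lists cut to the shortest, 1.15 at FDR under 0.0001, 1.08 with clusters counted once, 1.69 at most 200 kb, 0.37 in gene-end bins, 0.41 in the gene-start bin and 1.04 in read pairs, none of which passed, and from 0.72 to 1.70 with a library left out. With a library left out, the Ebf1 number ran from -0.57 without E16.5 replicate 1 to 0.04 without E16.5 replicate 2. For interactions of at most 200 kb it was -0.72. The replicate numbers are not known to pair the libraries (correlation of deviations 0.089 for number and 0.128 for strength over 2 pairs); with a replicate block 370 genes and 939 contacts were called, and Foxp1 kept an adjusted p of 0.0440 (edgeR).

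Other signs turned as well. For distance these were Drd1 without E12.5 replicate 2 (-7.50 kb, against 13 kb without E12.5 replicate 1) and Foxp1 by the mean (14.1 kb). For the share per 10000, Drd1 turned from 0.337 to -1.65 and all 5 genes from 2.39 to -2.97 with clusters counted once. The share of all 5 also turned without E16.5 replicate 1 (-0.160, against 4.93 without E16.5 replicate 2). Of contacts with no call, with the expected offset, the 490 kb contact of Foxp1 was -0.10, those of Ebf1 at 390 and 400 kb 0.00 and 0.03, and that of Isl1 at chr13:116710001-116720000 0.17. Without E12.5 replicate 1 these Ebf1 contacts were 0.09 and 0.12, and the Isl1 contacts 0.43 for that bin and 0.07 for the neighbouring anchor. Without E16.5 replicate 2 the first Ebf1 contact was 0.19 and the Isl1 contacts 0.18 and 0.10. The lowest values with a library left out were -0.38 for both Ebf1 contacts, -0.42 for the Isl1 contact at that bin and -0.18 for the neighbouring anchor. The causes were not tested.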
